A study of Homo sapiens with 4 samples.

Results

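The data described here are the genes whose difference with the cyclic AMP analogue 8Br-cAMP was not the same after knockdown of the transcriptional co-activators YAP and TAZ as with a control siRNA. They were measured in KGN cells, an established line from a human granulosa cell tumour. The quantity is a difference of differences on the log2 scale, called the interaction below. It is the log2 ratio of siYT+8Br-cAMP over siYT, less the log2 ratio of siNC+8Br-cAMP over siNC. A positive value means that the ratio with 8Br-cAMP was higher after knockdown than with control siRNA, and a negative value means that it was lower. Probe sets with 1 gene symbol that read at least 250 on all 4 arrays were used, since low intensities give unstable ratios. Of the 19775 genes named on the arrays 7928 had such a probe set, and 3023 had at least 2. In 37 of these 3023 genes every used probe set was past 2-fold in the same direction, 19 higher (0.629% of the genes) and 18 lower (0.595%). These 37 are the genes described.

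The siYT+8Br-cAMP cells received siRNAs to YAP and TAZ at 5 nM each and then, at 48 h, medium with 0.5 mM 8Br-cAMP for 24 h. The siYT cells had the same siRNAs and medium without the analogue. The siNC+8Br-cAMP cells received control siRNA at 10 nM and the analogue, and the siNC cells received control siRNA alone. Each of the 4 groups was 1 Affymetrix 3' expression array of 1 cell line, so the values have no replicate error, no test was possible, and each interaction draws on all 4 arrays.

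YAP and its relative TAZ (gene WWTR1) are held in the cytoplasm by the kinases of the Hippo pathway, and in the nucleus they bind TEAD factors and switch on genes of growth, matrix and cell shape. Cyclic AMP carries the signal of FSH and LH in granulosa cells: it activates protein kinase A, which phosphorylates CREB and turns on steroid synthesis. 8Br-cAMP enters cells and imitates that signal without a receptor. Granulosa cells also make activin, inhibin and follistatin, the secreted proteins through which the ovary and the pituitary regulate each other.

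Both siRNA targets were low on the arrays labelled siYT, and their used probe sets had interactions near 0. The YAP1 probe set 224894_at read 1412 in siYT+8Br-cAMP, 1295 in siYT, 4772 in siNC+8Br-cAMP and 4915 in siNC, with an interaction of 0.17. Its other used probe set gave -0.09. The WWTR1 probe set 202133_at read 1154 in siYT+8Br-cAMP, 1028 in siYT, 7048 in siNC+8Br-cAMP and 5366 in siNC, with an interaction of -0.23. Probe sets under 250 on at least 1 array were not all near 0. They gave -1.10 (202132_at) and -0.82 (202134_s_at) for WWTR1 and -0.18 (213342_at) for YAP1. Median intensities of all probe sets were between 56.9 and 66.3 over the arrays. Of 13 granulosa markers 10 reached 250 on at least 1 array, but AMHR2, FSHR and NR5A1 did not. All 5 fibroblast markers reached it, among them COL1A1 and COL3A1, while 0 of 5 epithelial markers and 0 of 3 immune markers did. Of 4 endothelial markers KDR and PECAM1 reached it, and of 3 theca and Leydig markers INSL3 did.

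How far the probe sets of a gene agreed sets how firmly a gene can be described. Among the 2006 genes with exactly 2 used probe sets, the interaction had the same sign in 56.8%, and its correlation between the first and the second probe set was 0.22 across genes, which are not independent replicates. The same figures were 74.3% and 0.69 for siYT over siNC, and 70.0% and 0.59 for siNC+8Br-cAMP over siNC. The figures were smaller wherever the siYT+8Br-cAMP array entered, at 61.6% and 0.41 for siYT+8Br-cAMP over siYT and at 63.7% and 0.46 for siYT+8Br-cAMP over siNC+8Br-cAMP. The SD between probe sets was 0.52 log2 units in each of those comparisons and 0.36 in each comparison without that array. It was 0.59 for the interaction, against an SD of 0.66 over all used probe sets. Taken probe set by probe set, 4.11% of the 12416 used probe sets had interactions past 2-fold higher and 7.44% past 2-fold lower. Of the 4905 genes with a single used probe set, 4.02% were past 2-fold higher and 7.36% lower. Agreement was closer where the interaction was large: the second probe set had the same sign in 51.6% of 1213 genes whose first lay under 0.5, and in 73.9% of 23 genes whose first was at least 2.

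**Figure D1:**
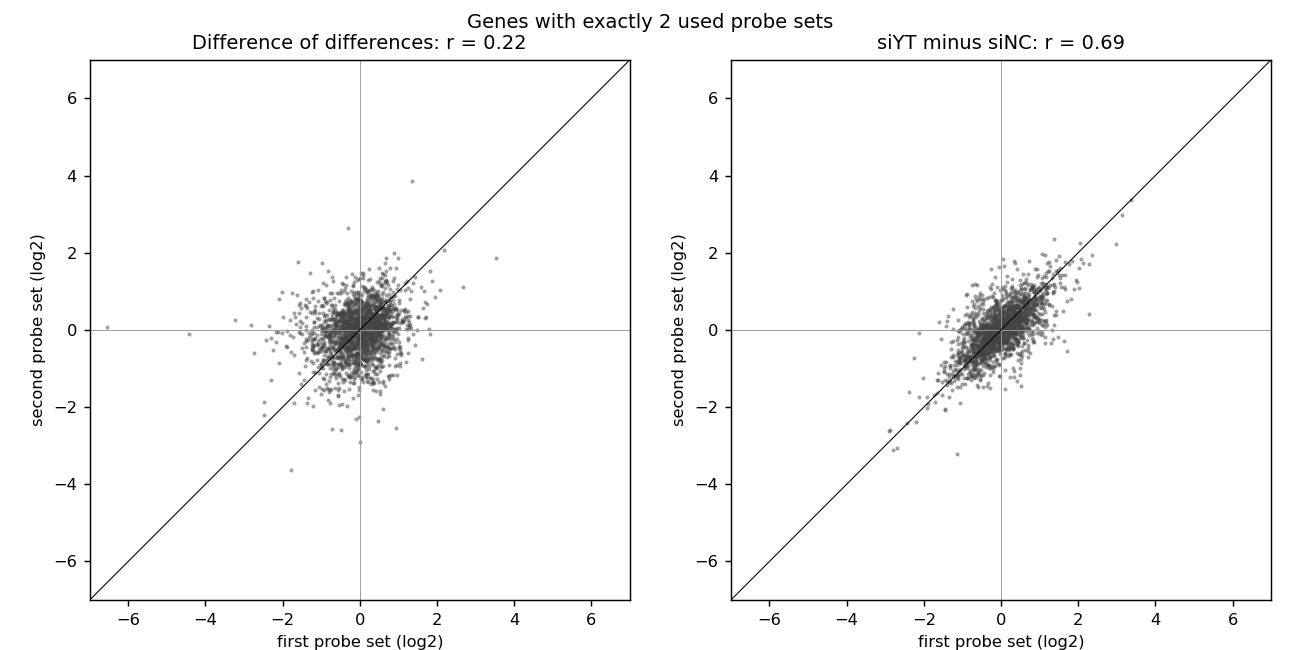
Each point is 1 of 2006 genes with exactly 2 used probe sets, with the log2 value of the first on the x axis and of the second on the y axis. The interaction (left) forms a round cloud with r = 0.22, while siYT over siNC (right) follows the diagonal with r = 0.69.

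The siYT+8Br-cAMP array also had the highest 3' over 5' ratios of the control transcripts, a sign of RNA or labelling quality. The ACTB ratio was 1.35 in siYT+8Br-cAMP, 1.12 in siYT, 1.14 in siNC+8Br-cAMP and 1.07 in siNC. The GAPDH ratio was 1.13 in siYT+8Br-cAMP, 0.888 in siYT, 0.920 in siNC+8Br-cAMP and 0.962 in siNC. The part of this in the interactions was not tested. Over the 3023 genes, the array farthest from the mean of the other 3 was siYT+8Br-cAMP in 32.7%, siYT in 22.0%, siNC+8Br-cAMP in 18.0% and siNC in 27.3%. Over the 37 genes it was siYT+8Br-cAMP in 9, siYT in 13, siNC+8Br-cAMP in 6 and siNC in 9, so no single array stood apart in all of them.

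Among the 19 higher genes, 12 had ratios with 8Br-cAMP that ran opposite ways, above 1 after knockdown and below 1 with control siRNA in every used probe set, as in 3.94% of the 3023 genes. In 7 of the 19 (INHBA, ST6GALNAC5, STC2, FST, EXOSC6, BDNF and TGFB2) every probe set was at least 2-fold lower in siYT than in siNC, as in 2.41% of the 3023. With 8Br-cAMP present, 0 of the 19 were 2-fold lower in every probe set, against 1.92% of the 3023, and 2 (NIBAN1 and ZBED1) were 2-fold higher in every probe set, as in 1.69%. Ratios with 8Br-cAMP were at least 2 after knockdown in every probe set of 4 genes (SDC1, INHBA, CD55 and BDNF), as in 0.992% of the 3023. FST and EXOSC6 were at least 2-fold lower with it under control siRNA in every probe set, as in 0.926%. The rule uses the same 4 arrays, so nothing is read from these counts or those for the lower genes. The secreted factors come first below, then surface proteins, signalling proteins and the others.

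INHBA encodes the subunit shared by activin A and inhibin A, and it held the highest median interaction of the 37 genes, 2.69. Probe set 210511_s_at read 25910 in siYT+8Br-cAMP, 1475 in siYT, 9838 in siNC+8Br-cAMP and 6482 in siNC. Probe set 227140_at read 33512 in siYT+8Br-cAMP, 5097 in siYT, 31170 in siNC+8Br-cAMP and 17150 in siNC. The siYT array stood low in both. Ratios with 8Br-cAMP were 17.6 and 6.57 after knockdown, against 1.52 and 1.82 with control siRNA, which gave interactions of 3.53 and 1.86. Without the analogue, siYT was 4.40-fold and 3.36-fold lower than siNC, whereas with it siYT+8Br-cAMP was 2.63-fold and 1.08-fold higher than siNC+8Br-cAMP.

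FST encodes follistatin, which binds activin and blocks it. Probe set 204948_s_at read 3122 in siYT+8Br-cAMP, 4236 in siYT, 6136 in siNC+8Br-cAMP and 19442 in siNC. Probe set 226847_at read 889 in siYT+8Br-cAMP, 1772 in siYT, 1952 in siNC+8Br-cAMP and 9328 in siNC. Here the siNC array stood high, and either agent alone went with a lower reading. The analogue went with 1.36-fold and 1.99-fold lower readings after knockdown, against 3.17-fold and 4.78-fold lower with control siRNA, for interactions of 1.22 and 1.26. INHBA and FST, a ligand subunit and its antagonist, thus shared a positive interaction although the array that stood apart was siYT for INHBA and siNC for FST.

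TGFB2, a ligand of the TGF-beta receptors, had 3 used probe sets and interactions of 1.01, 2.03 and 1.15. Probe set 220407_s_at read 1200 in siYT+8Br-cAMP, 430 in siYT, 1250 in siNC+8Br-cAMP and 1829 in siNC. All 3 were higher with 8Br-cAMP after knockdown (1.62-fold, 2.79-fold and 1.43-fold) and lower with it under control siRNA (1.24-fold, 1.46-fold and 1.55-fold). The siYT array read lowest in each.

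STC2 encodes stanniocalcin 2, a secreted glycoprotein. Probe set 203438_at read 5959 in siYT+8Br-cAMP, 4303 in siYT, 5210 in siNC+8Br-cAMP and 9524 in siNC. Probe set 203439_s_at read 1904 in siYT+8Br-cAMP, 404 in siYT, 1209 in siNC+8Br-cAMP and 3724 in siNC. Both placed siYT lowest and siNC highest, but the sizes were unlike, with interactions of 1.34 and 3.86. BDNF, a neurotrophin that granulosa cells also secrete, was higher with 8Br-cAMP in both settings. Its probe set 206382_s_at read 12956 in siYT+8Br-cAMP, 2228 in siYT, 14677 in siNC+8Br-cAMP and 5691 in siNC, with ratios of 5.82 after knockdown and 2.58 with control siRNA. The siYT array was the low one, and the interactions were 1.17 and 1.03.

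Among surface proteins, SDC1 encodes syndecan-1, a heparan sulphate proteoglycan that binds matrix and growth factors. Probe set 201286_at read 2061 in siYT+8Br-cAMP, 563 in siYT, 704 in siNC+8Br-cAMP and 875 in siNC. Probe set 201287_s_at read 2300 in siYT+8Br-cAMP, 563 in siYT, 1256 in siNC+8Br-cAMP and 1299 in siNC. The siYT+8Br-cAMP array was highest in both, with ratios of 3.66 and 4.09 with 8Br-cAMP after knockdown, against 0.804 and 0.967 with control siRNA. The interactions of 2.19 and 2.08 made SDC1 the gene with the highest weakest probe set of the 3023.

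CD55, or decay-accelerating factor, shields cells from complement and had 3 used probe sets with close interactions of 1.71, 1.59 and 1.70. Probe set 1555950_a_at read 23922 in siYT+8Br-cAMP, 4307 in siYT, 8727 in siNC+8Br-cAMP and 5136 in siNC. The ratios with 8Br-cAMP lay between 5.52 and 5.66 after knockdown and between 1.70 and 1.87 with control siRNA. ST6GALNAC5, a sialyltransferase that modifies gangliosides, was high in siNC alone. Probe set 220979_s_at read 420 in siYT+8Br-cAMP, 555 in siYT, 633 in siNC+8Br-cAMP and 2238 in siNC, and the interactions were 1.42 and 1.36.

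Of the signalling proteins, RCAN1 is an inhibitor of the phosphatase calcineurin. Probe set 208370_s_at read 2327 in siYT+8Br-cAMP, 918 in siYT, 1475 in siNC+8Br-cAMP and 2118 in siNC, with the siYT array low. Its interactions were 1.86 and 1.28. GUCY1A2, a subunit of soluble guanylate cyclase, which makes cyclic GMP, was low in siNC+8Br-cAMP. Probe set 228731_at read 1043 in siYT+8Br-cAMP, 533 in siYT, 322 in siNC+8Br-cAMP and 701 in siNC, and the interactions were 2.09 and 1.05. NIBAN1, a stress-responsive protein, showed the same order of arrays on 1 of its probe sets. That probe set, 217967_s_at, read 14791 in siYT+8Br-cAMP, 8972 in siYT, 6708 in siNC+8Br-cAMP and 11814 in siNC, and the interactions were 1.82 and 1.54.

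ETS2, a transcription factor of the ETS family, had interactions of 1.00 and 1.85, the first only just past 2-fold. MID1, a microtubule-bound ubiquitin ligase, read 4729 in siYT+8Br-cAMP, 2397 in siYT, 1626 in siNC+8Br-cAMP and 2488 in siNC on probe set 203636_at. Its interactions were 1.59 and 1.10, and siYT+8Br-cAMP was high in both. MTMR2, a phosphatase of membrane phosphoinositides, had interactions of 1.18 and 1.23 with siYT low in both probe sets.

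The remaining 5 higher genes act in mitochondria, RNA or chromatin, or in other roles. GRPEL1, a helper of the mitochondrial chaperone HSP70, had interactions of 1.37 and 1.21. PPIE, a prolyl isomerase of the spliceosome, had 1.24 and 1.08. EXOSC6, a subunit of the RNA exosome, was high in siNC: probe set 1558044_s_at read 335 in siYT+8Br-cAMP, 350 in siYT, 274 in siNC+8Br-cAMP and 1812 in siNC. Its probe sets gave 2.66 and 1.12. WDR41, a partner of C9orf72, gave 1.04 and 1.04. ZBED1, a zinc-finger DNA-binding protein, gave 1.67 and 1.01.

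**Figure D2:**
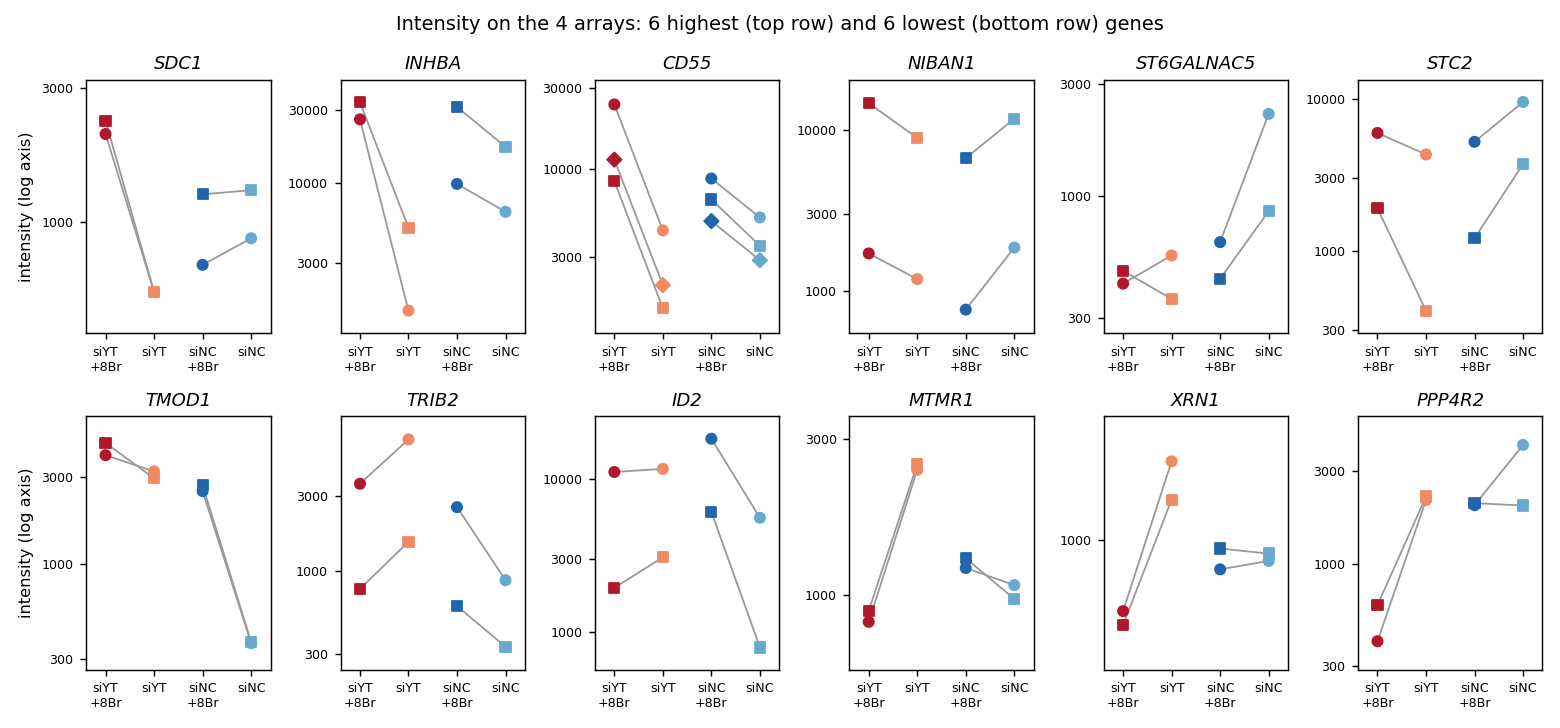
Intensity (log axis) on the 4 arrays for the 6 higher and the 6 lower genes with the strongest weakest probe set, with 1 symbol shape per probe set and lines joining the arrays with and without 8Br-cAMP. In the top row the left-hand line falls more, or rises less, to the right than the right-hand line, as for INHBA, and in the bottom row the reverse holds, as for TMOD1.

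Among the 18 lower genes 5 (TMOD1, ID2, CD200, RDH10 and AKR1C2) had ratios of at least 2 with the analogue under control siRNA in every used probe set, as in 1.22% of the 3023 genes. Another 7 (MTMR1, XRN1, PPP4R2, SMARCA2, CTBS, PSAT1 and MARK3) were at least 2-fold lower with it after knockdown, as in 1.32%. In 6 genes (TRIB2, ID2, MTMR1, CYB561, SMARCA2 and B4GALT6) the ratios ran opposite ways, below 1 after knockdown and above 1 with control siRNA, as in 3.37%. In 6 of the 18 (TMOD1, TRIB2, ID2, MTMR1, CTBS and MARK3) every probe set was at least 2-fold higher in siYT than in siNC, as in 2.55%.

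TMOD1 encodes tropomodulin 1, which caps the slow-growing end of actin filaments. Probe set 203661_s_at read 3963 in siYT+8Br-cAMP, 3225 in siYT, 2514 in siNC+8Br-cAMP and 366 in siNC. Probe set 203662_s_at read 4624 in siYT+8Br-cAMP, 2956 in siYT, 2704 in siNC+8Br-cAMP and 372 in siNC. The siNC array stood low, and knockdown, the analogue or both went with a several-fold higher reading. The ratios with 8Br-cAMP were 1.23 and 1.56 after knockdown, against 6.86 and 7.27 with control siRNA, for interactions of -2.48 and -2.22.

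TRIB2, a pseudokinase of the Tribbles family, had its highest reading in siYT. Probe set 202478_at read 3600 in siYT+8Br-cAMP, 6881 in siYT, 2555 in siNC+8Br-cAMP and 877 in siNC. It was 1.91-fold lower with 8Br-cAMP after knockdown and 2.91-fold higher with control siRNA, and the interactions were -2.48 and -1.86. ID2, a helix-loop-helix protein that lacks a DNA-binding region and is a target of BMP signalling, was highest in siNC+8Br-cAMP. Probe set 201565_s_at read 11177 in siYT+8Br-cAMP, 11721 in siYT, 18461 in siNC+8Br-cAMP and 5603 in siNC. Probe set 201566_x_at read 1947 in siYT+8Br-cAMP, 3089 in siYT, 6144 in siNC+8Br-cAMP and 793 in siNC. Ratios with 8Br-cAMP were 0.954 and 0.630 after knockdown, against 3.30 and 7.75 with control siRNA, and the interactions of -1.79 and -3.62 had the lowest median of the 37 genes, -2.70.

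CD200, a surface glycoprotein that restrains myeloid cells, was 2.06-fold and 3.85-fold higher with 8Br-cAMP under control siRNA, and its interactions were -1.46 and -1.29. RDH10, which oxidises retinol towards retinoic acid, had 3 used probe sets. Probe set 226021_at read 2506 in siYT+8Br-cAMP, 2172 in siYT, 3223 in siNC+8Br-cAMP and 1300 in siNC. The 3 ratios with 8Br-cAMP were 0.860, 1.15 and 1.10 after knockdown, against 2.78, 2.48 and 2.44 with control siRNA, for interactions of -1.69, -1.10 and -1.15.

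AKR1C1 and AKR1C2 encode aldo-keto reductases that inactivate progesterone and dihydrotestosterone. The AKR1C2 probe set 211653_x_at read 3106 in siYT+8Br-cAMP, 2699 in siYT, 9082 in siNC+8Br-cAMP and 2824 in siNC. The AKR1C1 probe set 204151_x_at read 6565 in siYT+8Br-cAMP, 5956 in siYT, 14533 in siNC+8Br-cAMP and 6296 in siNC. The siNC+8Br-cAMP array was the high one in both. The interactions were -1.07 and -1.48 for AKR1C2 and -1.07 and -1.10 for AKR1C1. These genes are near-identical and all 4 probe sets carry the suffix of probes that may cross-hybridise, so they may count as 1 observation.

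PSAT1, an enzyme of serine synthesis, was lower with 8Br-cAMP in both settings and lower after knockdown in both. Probe set 220892_s_at read 525 in siYT+8Br-cAMP, 4203 in siYT, 3886 in siNC+8Br-cAMP and 14037 in siNC. Probe set 223062_s_at read 984 in siYT+8Br-cAMP, 7053 in siYT, 9366 in siNC+8Br-cAMP and 22830 in siNC. The analogue went with 8.01-fold and 7.17-fold lower readings after knockdown, against 3.61-fold and 2.44-fold lower with control siRNA, for interactions of -1.15 and -1.56. PSAT1 was the only one of the 37 genes that was at least 2-fold lower in every probe set in all 4 pairwise comparisons.

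PPP4R2, a regulatory subunit of protein phosphatase 4, was low in siYT+8Br-cAMP. Probe set 226317_at read 613 in siYT+8Br-cAMP, 2208 in siYT, 2043 in siNC+8Br-cAMP and 1987 in siNC, with an interaction of -1.89, and the other probe set gave -1.38. MTMR1, a relative of MTMR2 and likewise a phosphoinositide phosphatase, was high in siYT. Its probe set 213511_s_at read 831 in siYT+8Br-cAMP, 2417 in siYT, 1212 in siNC+8Br-cAMP and 1076 in siNC, and the interactions were -1.71 and -1.90. These relatives thus had opposite interactions, with the siYT array high for MTMR1 and low for MTMR2.

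XRN1, the exonuclease that degrades decapped mRNA from its 5' end, was also high in siYT. Probe set 225814_at read 586 in siYT+8Br-cAMP, 1803 in siYT, 802 in siNC+8Br-cAMP and 854 in siNC, and the interactions were -1.53 and -1.41. MARK3, a kinase of microtubule-associated proteins, was likewise highest in siYT, with interactions of -1.21 and -1.10. Its probe set 202568_s_at read 1969 in siYT+8Br-cAMP, 6690 in siYT, 1337 in siNC+8Br-cAMP and 1961 in siNC. CTBS, a lysosomal chitobiase, had interactions of -1.20 and -1.97 and the same high array.

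SMARCA2, an ATPase of the SWI/SNF chromatin remodelling complex, was lowest in siYT+8Br-cAMP. Probe set 206544_x_at read 347 in siYT+8Br-cAMP, 1061 in siYT, 1276 in siNC+8Br-cAMP and 795 in siNC, and the interactions were -2.29 and -1.30. Both used probe sets carry the suffix of probes that may cross-hybridise. The unused SMARCA2 probe sets, under 250 on at least 1 array, were mixed in sign, with interactions between -2.76 and 2.35. STK38L, also called NDR2, is a kinase related to the Hippo kinases LATS1 and LATS2 and can phosphorylate YAP. Its probe set 212572_at read 1041 in siYT+8Br-cAMP, 2490 in siYT, 1452 in siNC+8Br-cAMP and 1592 in siNC, with an interaction of -1.13. Its probe set 212565_at read 395 in siYT+8Br-cAMP, 591 in siYT, 631 in siNC+8Br-cAMP and 317 in siNC, with an interaction of -1.57. The highest array was thus siYT on 212572_at and siNC+8Br-cAMP on 212565_at. The other 3 lower genes came nearest the level filter, with readings in siYT+8Br-cAMP of 259 (CYB561), 263 (B4GALT6) and 274 (SAMD9). Other genes also had readings not far above it, such as RDH10 at 311 and STK38L at 317 in siNC and RCAN1 at 313 in siYT. SAMD9, an interferon-inducible antiviral protein, gave -1.16 and -1.09. CYB561, a transmembrane electron carrier, gave -1.34 and -1.76. B4GALT6, which makes lactosylceramide, gave -1.01 and -1.65.

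**Figure D3:**
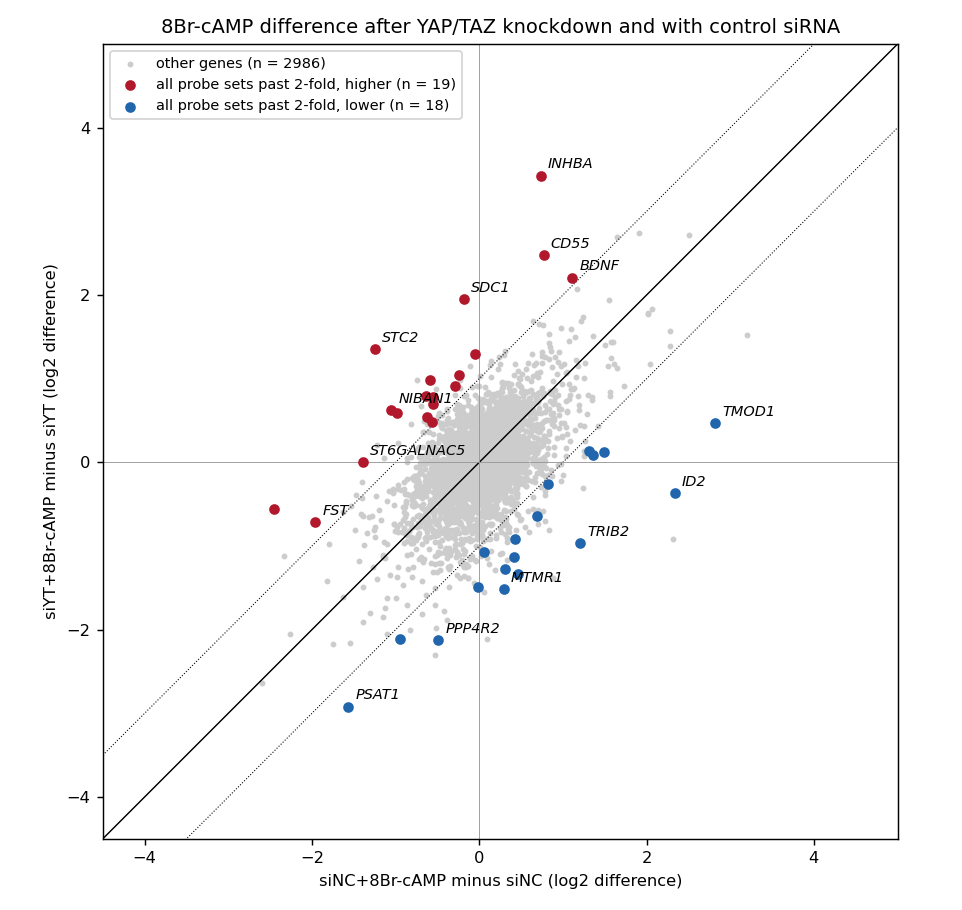
Each point is 1 of the 3023 genes, the x axis is the log2 ratio with 8Br-cAMP under control siRNA and the y axis the same ratio after knockdown, both as the median over the gene's used probe sets. The 37 genes lie beyond the dotted lines that mark 2-fold from the diagonal, INHBA at the top and ID2 and TMOD1 at the right. Points also share arrays and intensities, so the plot describes sizes only.

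Genes on either side of the 2-fold rule hardly differed. The last higher genes inside it had weakest probe sets of 1.00 (ETS2), 1.01 (TGFB2) and 1.01 (ZBED1), and the first outside had 1.00 (RANGAP1, just under the limit), 0.99 (AOX1) and 0.96 (INSIG1). The last lower genes inside had -1.01 (B4GALT6), -1.07 (AKR1C1) and -1.07 (AKR1C2), and the first outside had -0.99 (RAB30), -0.98 (CALHM2) and -0.97 (TBC1D8B).

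The 37 genes also had 37 probe sets, of 22 genes, that fell under 250 on at least 1 array and were not used. Of these, 20 pointed the way of their gene and 12 of the 20 were past 2-fold, while 17 pointed the other way and 7 of the 17 were past 2-fold. The INHBA probe set 204926_at, with the same sign of interaction, read 274 in siYT+8Br-cAMP, 50.8 in siYT, 62.1 in siNC+8Br-cAMP and 104 in siNC, so unlike the used ones it was lower with 8Br-cAMP under control siRNA. FST 207345_at read 177 in siYT+8Br-cAMP, 288 in siYT, 363 in siNC+8Br-cAMP and 1417 in siNC, with an interaction of 1.26. The MTMR2 probe set 203212_s_at ran the other way, at 231 in siYT+8Br-cAMP, 334 in siYT, 567 in siNC+8Br-cAMP and 609 in siNC, with an interaction of -0.43.

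Promoters of 33 of the 37 genes were found in a RefSeq table (build GRCh38.p14) of windows from 250 bases before to 50 after each gene's start. They were searched on both strands for the cyclic AMP response element TGACGTCA, for its TGACGT core, which every full element also holds, and for GGAATG, the core letters that TEAD factors bind. The full element was in 1.98% of all 27305 promoters, in 0 of 17 higher genes and in 1 of 16 lower genes (STK38L). TGACGT was in 8.32% of all promoters, in 3 higher genes (FST, TGFB2 and ETS2) and in 2 lower genes (PPP4R2 and STK38L). GGAATG was in 14% of all promoters, in 4 higher genes (MTMR2, MID1, WDR41 and TGFB2) and in 0 lower genes. The 3 windows printed hold the full element (STK38L) or its core in a TGF-beta family gene (TGFB2, which also holds GGAATG) and in that of an activin antagonist (FST). They lie on the plus strand at chr1:218345086-218345385 (TGFB2), chr5:53480379-53480678 (FST) and chr12:27244036-27244335 (STK38L). Capitals mark the matches, of which both in TGFB2 read on the opposite strand, and a match is a description of letters and not of binding.
TGFB2: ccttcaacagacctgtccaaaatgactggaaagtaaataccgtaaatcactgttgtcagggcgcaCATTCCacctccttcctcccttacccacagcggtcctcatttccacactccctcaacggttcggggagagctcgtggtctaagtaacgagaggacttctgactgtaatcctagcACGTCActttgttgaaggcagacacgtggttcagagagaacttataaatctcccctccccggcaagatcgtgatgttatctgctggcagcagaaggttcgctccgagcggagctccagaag
FST: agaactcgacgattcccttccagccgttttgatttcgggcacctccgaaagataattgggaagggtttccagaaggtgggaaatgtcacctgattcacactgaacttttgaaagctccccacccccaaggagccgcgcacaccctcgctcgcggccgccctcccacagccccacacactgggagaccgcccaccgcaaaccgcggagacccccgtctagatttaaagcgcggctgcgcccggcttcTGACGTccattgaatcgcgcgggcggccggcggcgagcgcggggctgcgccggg
STK38L: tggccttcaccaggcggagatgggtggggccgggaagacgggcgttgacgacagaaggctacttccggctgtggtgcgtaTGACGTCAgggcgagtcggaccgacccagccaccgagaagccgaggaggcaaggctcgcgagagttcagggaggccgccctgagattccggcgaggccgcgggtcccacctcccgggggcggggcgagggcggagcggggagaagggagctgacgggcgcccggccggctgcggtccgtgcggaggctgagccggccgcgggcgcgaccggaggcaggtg

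The steroidogenic genes, the classical response of granulosa cells to cyclic AMP, were mostly outside the 37. Of 36 on the arrays 23 had a used probe set and 7 had at least 2, of which 1 was higher in all, 2 lower (AKR1C1 and AKR1C2) and 4 mixed in sign. The genes of the main pathway described next had at most 1 used probe set each. CYP19A1, the aromatase that makes oestrogen, read 24784 in siYT+8Br-cAMP, 7213 in siYT, 6558 in siNC+8Br-cAMP and 184 in siNC on probe set 203475_at. Its ratio with 8Br-cAMP was 3.44 after knockdown, against 35.7 with control siRNA. The interaction on this probe set was -3.38, or -2.93 with the siNC reading raised to 250. The siYT+8Br-cAMP array was nevertheless the highest of the 4. Another CYP19A1 probe set read 6706 in siYT+8Br-cAMP, 761 in siYT, 357 in siNC+8Br-cAMP and 2.42 in siNC. Its interaction of -4.06 rests on the siNC reading and was not recomputed with readings raised to 250. No direction is therefore read for CYP19A1. CYP11A1, which makes pregnenolone from cholesterol, read 4518 in siYT+8Br-cAMP, 1056 in siYT, 1171 in siNC+8Br-cAMP and 81.4 in siNC. HSD3B2, which makes progesterone, read 507 in siYT+8Br-cAMP, 179 in siYT, 364 in siNC+8Br-cAMP and 36.9 in siNC, the last below that array's median of 56.9. Their interactions rest on these low readings: as deposited they were -1.75 for CYP11A1 and -1.80 for HSD3B2, but with readings under 250 raised to 250 they were -0.13 and 0.48, so no direction is read from them. In these 3 genes siNC was the lowest array, siYT+8Br-cAMP the highest, and either agent alone went with a level between them.

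STAR, which carries cholesterol into mitochondria, was above 250 on all 4 arrays. It read 33335 in siYT+8Br-cAMP, 1227 in siYT, 37308 in siNC+8Br-cAMP and 1284 in siNC. Its ratios with 8Br-cAMP were 27.2 after knockdown and 29.0 with control siRNA, with an interaction of -0.10.

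**Figure D4:**
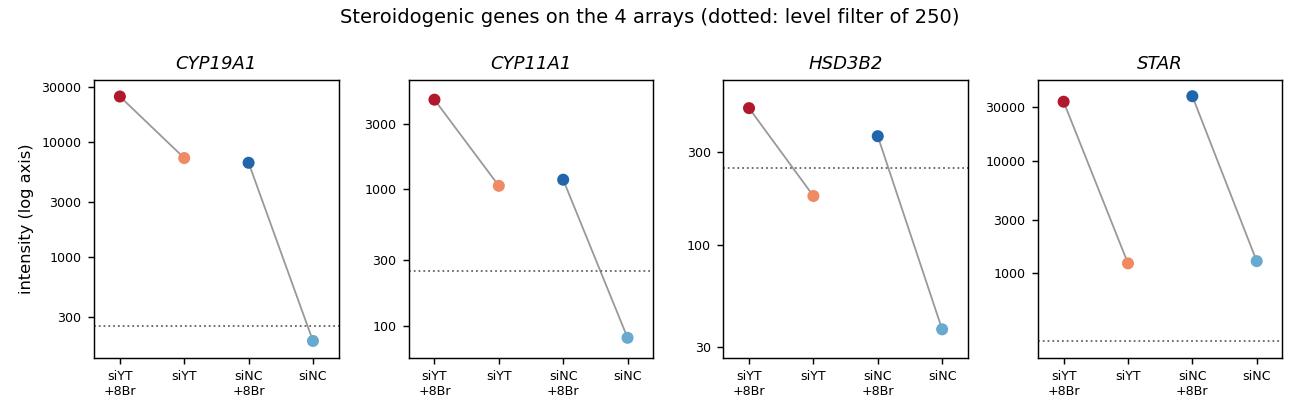
Intensity (log axis) of 4 steroidogenic genes on the 4 arrays, with lines joining the arrays with and without 8Br-cAMP and a dotted line at the level filter of 250. CYP19A1 (probe set 203475_at only), CYP11A1 and HSD3B2 lie under the dotted line in siNC, while the lines of STAR are parallel.

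Over all 3023 genes, the used probe sets were higher in all for 728 genes (24.1%), lower in all for 734 (24.3%) and mixed for 1561 (51.6%), and the median interaction was -0.02. The 22 gene lists are read beside those shares and carry no test. The list with the highest median was the G2 and M phase list, at 0.88, but it had 4 genes, 3 higher and 1 mixed, and over its 24 genes with at least 1 used probe set the median was 0.44. Its members fell outside 2-fold agreement: TOP2A, the topoisomerase of dividing cells, read 701 in siYT+8Br-cAMP, 507 in siYT, 1538 in siNC+8Br-cAMP and 4397 in siNC on probe set 201292_at. Its median interaction was 1.44, that of the mitotic kinase CDK1 0.72 and that of HMMR 1.03. Replication genes were 3 higher, 1 lower and 4 mixed of 8, with RRM1 at 0.90.

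YAP, TAZ and TEAD targets had a median of 0.47, with 11 higher, 4 lower and 7 mixed of 22, and INHBA and TGFB2 past 2-fold in every probe set. HMMR, a hyaluronan receptor also in the G2 and M phase list, was among the higher at 1.03, and EMP2, a membrane protein of epithelia, among the lower at -0.95. The Hippo pathway list had a median of -0.18, with 3 higher, 7 lower and 6 mixed of 16. MAP4K4, a kinase upstream of LATS, had a median of -1.20, STK4 0.79 and WWC3 -0.46. Of 14 genes of cyclic AMP feedback and CREB targets, 2 were higher, 3 lower and 9 mixed, with a median of -0.06. RGS4, which shortens G protein signals, had a median of -1.12 over 3 probe sets, AKAP12, a scaffold of protein kinase A, 0.80 and DUSP1, a phosphatase of MAP kinases, 0.39.

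Oxidative phosphorylation genes were 9 higher, 0 lower and 7 mixed of 16, with a median of 0.39 and 0 past 2-fold in every probe set. NDUFS1, a core subunit of complex I, read 5306 in siYT+8Br-cAMP, 2421 in siYT, 4369 in siNC+8Br-cAMP and 2957 in siNC on probe set 203039_s_at, with a median interaction of 0.75. Ribosomal protein genes were 8 higher, 1 lower and 14 mixed of 23, with a median of 0.05. The cholesterol list was 4 higher, 1 lower and 2 mixed of 7, with DHCR7, the last enzyme of cholesterol synthesis, at 1.20, INSIG1 at 1.00 and the exporter ABCA1 at -1.19.

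Extracellular matrix genes were 6 higher, 12 lower and 11 mixed of 29, with a median of -0.15 and 0 past 2-fold in every probe set. COL1A1, the main chain of type I collagen and also a fibroblast marker, was lower in all 4 probe sets, with values between -2.08 and -0.65. Its probe set 1556499_s_at read 6926 in siYT+8Br-cAMP, 36702 in siYT, 28686 in siNC+8Br-cAMP and 35932 in siNC, so the siYT+8Br-cAMP array was the low one. The other 4 fibroblast markers had summed intensities of 32215 in siYT+8Br-cAMP, 32351 in siYT, 28573 in siNC+8Br-cAMP and 26943 in siNC. Most of each sum was COL3A1 (26953, 24436, 27311 and 25948 in that order), and the rest were not level. LUM read 3698 in siYT+8Br-cAMP, 3355 in siYT, 434 in siNC+8Br-cAMP and 276 in siNC. In the same order DCN read 876, 1068, 279 and 165, and PDGFRA read 687, 3493, 548 and 553. In the actin and contractile list 5 were higher, 3 lower and 11 mixed of 19, with TAGLN2 at -1.19, MYLK at -1.13 and TPM1 at -0.83. The TGF-beta and BMP list was 4 higher, 4 lower and 5 mixed of 13, and it held FST and TGFB2 among the higher and ID2 among the lower genes past 2-fold. Glycolysis and hypoxia genes were 5 higher, 6 lower and 5 mixed of 16, with the glucose transporter SLC2A3 at -1.35 and LDHB at 0.88.

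The ATF4 and unfolded protein response list was 6 higher, 5 lower and 9 mixed of 20, with PSAT1 past 2-fold lower and TRIB3 at 1.22. Interferon genes were 3 higher, 2 lower and 7 mixed of 12, with SAMD9 past 2-fold. The p53 list was 3 higher, 2 lower and 5 mixed of 10, the immediate early list 2, 2 and 8 of 12, and the inflammation list 2, 1 and 4 of 7. Granulosa identity genes were 3 higher, 2 lower and 1 mixed of 6. The Wnt and Notch list was 3, 1 and 5 of 9, with TCF4 at -1.03. Splicing genes were 8, 8 and 21 of 37, and genes of vesicle traffic 3, 10 and 23 of 36.

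**Figure D5:**
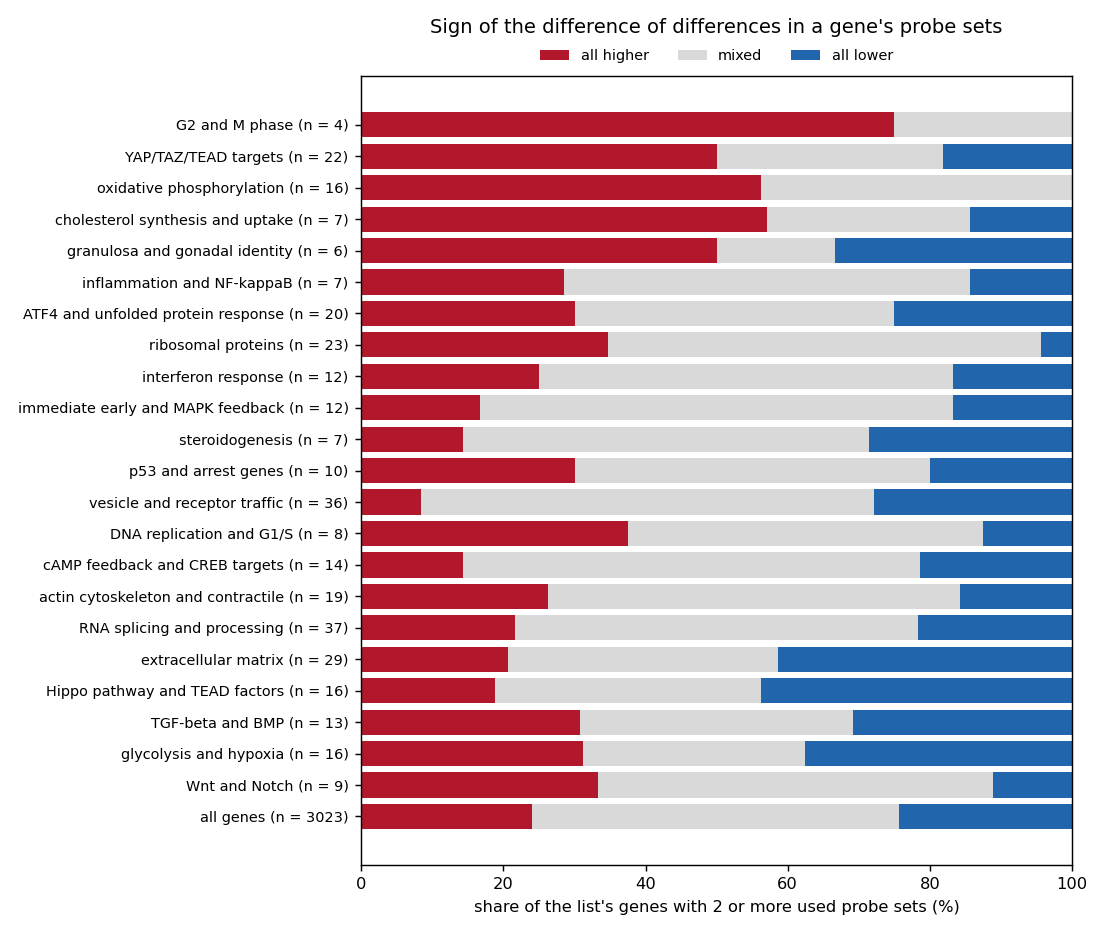
Share of each list's genes with at least 2 used probe sets whose interactions were higher in all of them (red), mixed (grey) or lower in all (blue), with all 3023 genes at the bottom. Lists are ordered by median from top to bottom, and several hold fewer than 10 genes.

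In 21 genes the used probe sets had interactions past 2-fold in both directions. FBXO32, a ubiquitin ligase subunit, read 803 in siYT+8Br-cAMP, 2702 in siYT, 2045 in siNC+8Br-cAMP and 2269 in siNC on probe set 225328_at. On probe set 225803_at it read 3882 in siYT+8Br-cAMP, 2176 in siYT, 1119 in siNC+8Br-cAMP and 2111 in siNC. The interactions were -1.60 and 1.75, so 1 probe set placed siYT+8Br-cAMP lowest and the other placed it highest. RAB23 (2.84, 0.09 and -1.40), ATF6 (between -1.21 and 2.51), ADD3 (between -1.82 and 1.39), PAFAH1B1 (between -2.00 and 1.08) and LMBR1 (between -1.48 and 1.52) were like it. The positions of probe sets along the transcripts were not used here, and whether such pairs read different transcripts was not tested.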

How the data were processed

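RNA of KGN cells was measured on 4 arrays, 1 per group, so p-values and errors could not be had. The deposited intensity values are the authors' processed values per probe set, and per the submitters' processing notes Affymetrix Expression Console and RMA were used (the releases were not given in the sources used here). Those deposited values are linear and each array has a mean of 500.1 after trimming 2% at each end, which is not the form RMA gives, so the summary and background method behind them is unknown. The platform annotation gave 1 symbol to 41097 of 54675 probe sets, several to 1801 and none to 11777, and 41043 matched a current gene by its ID.

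Log2 interactions were computed without further normalisation (Python 3.11.15, numpy 2.4.6, pandas 2.3.3, matplotlib 3.10.9). A gene counted as past 2-fold only when every used probe set was. The steps were run on simulated data, which checks the computation only. There all probe sets of a gene shared 1 true interaction, with less noise than on these arrays. Named were all 37 genes, 3 genes on each side of the limit, the siRNA targets, 4 steroidogenic genes, up to 4 members of each list and 6 genes whose probe sets disagreed. The genes and lists were chosen with earlier results of these data known. Alternatives were other level filters, pseudocounts, folds and agreement rules, and normalisation by median, quantiles or cyclic loess (R 4.3.3, limma 3.58.1).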

Additional observations from a re-analysis of the deposited data

Results flagged for a closer look

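In 18 of the 37 genes every used probe set ran 1 way with 8Br-cAMP after knockdown and the opposite way with control siRNA. This difference was not tested, since each group had 1 array. The rule that chose the 37 genes uses the same values, and over all 3023 genes 119 ran higher after knockdown and lower with control siRNA, and 102 the opposite way. The analogue went with higher readings after knockdown and lower readings with control siRNA in 12 of them, with median interactions of 2.60 for STC2, 2.13 for SDC1, 1.68 for NIBAN1, 1.57 for RCAN1, 1.57 for GUCY1A2, 1.43 for ETS2, 1.34 for ZBED1, 1.29 for GRPEL1, 1.20 for MTMR2, 1.16 for PPIE, 1.15 for TGFB2 and 1.04 for WDR41. It went with lower readings after knockdown and higher readings with control siRNA in the other 6, with -2.70 for ID2, -2.17 for TRIB2, -1.80 for MTMR1, -1.80 for SMARCA2, -1.55 for CYB561 and -1.33 for B4GALT6.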

How the results depend on the processing

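Against 19 higher and 18 lower genes as reported, a laxer level filter gave 23 and 46, a filter of 500 gave 12 and 11, the 1.5-fold rule gave 78 and 102, and the median of a gene's probe sets in place of all of them gave 46 and 92. Genes with at least 3 used probe sets gave 2 and 1, and probe sets without a suffix for shared transcripts gave 3 and 7, as fewer genes were then tested (1017 and 915 of 3023). Centring on the median gave 22 and 17, quantiles 23 and 19, cyclic loess 20 and 19, and a pseudocount of 50 gave 13 and 17. Some alternatives could not lose or reverse any of the 37, since every used probe set of these genes was already past 2-fold. Those were the filter of 500, the 1.5-fold rule, the median rule, the rule of 3 probe sets and the omission of shared probe sets. Only the laxer filter, the normalisations and the pseudocount could do so. Over these 10 alternatives 0 of the 37 genes changed direction, and 25 stayed past 2-fold wherever they had a value. The other 12 fell under it at least once: B4GALT6 under each normalisation and the pseudocount, ETS2 and WDR41 under cyclic loess and the pseudocount, SAMD9 under cyclic loess, BDNF, GUCY1A2, TGFB2 and ZBED1 under the pseudocount, and CYB561, EXOSC6, MTMR2 and SMARCA2 at the laxer filter. The cause was not tested. In an alternative chosen after seeing the data, readings under 250 were raised to 250 on 1 probe set per gene. The interactions were then -2.93 for the brightest CYP19A1 probe set, -0.13 for CYP11A1 and 0.48 for HSD3B2, the last with its sign turned. Another CYP19A1 probe set, at 357 in siNC+8Br-cAMP and 2.42 in siNC, was not recomputed in this way. No direction is therefore read for CYP19A1. At the filter of 500, 18 of the 37 had no value, and without shared probe sets 30 had none. No paired analysis was possible because each group held 1 array, and no array can be left out, since the interaction uses all 4. Low readings limit the precision of ratios, and the spread between cultures is unknown.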

Other observations

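The lowest interaction of a single used probe set belonged to GLRX, the oxidoreductase glutaredoxin, a gene chosen after its values were seen. Probe set 206662_at read 502 in siYT+8Br-cAMP, 3210 in siYT, 9702 in siNC+8Br-cAMP and 666 in siNC, with an interaction of -6.54. Probe set 209276_s_at of the same gene read 17486 in siYT+8Br-cAMP, 9704 in siYT, 12300 in siNC+8Br-cAMP and 7229 in siNC, with an interaction of 0.08, so GLRX did not meet the rule.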
